A study of Arabidopsis thaliana with 9 samples.

Results

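Cytosolic ribosomal protein genes were taken as every gene on chromosomes 1 to 5 whose listed name is RPL or RPS, a number, optionally an A, and a closing letter A to F. The rule reads names and not expression, and it found 161 of the 32833 genes listed: 89 with names of the large (60S) subunit and 72 with names of the small (40S) subunit. Of these, 148 had enough reads to be tested, 83 of the 60S and 65 of the 40S. The RNA came from leaves of Arabidopsis thaliana plants aged 9 weeks, all of the natural accession Shahdara, in 3 groups of 3 libraries described as biological replicates. The groups were wild type (treatment label Control), plants with the genotype Shahdara- IAA26 knockout, and plants with the genotype Shahdara- IAA26 stable, here called the knockout-labelled and the stabilised line. IAA26 is an Aux/IAA protein, a repressor that holds back auxin-responsive transcription until auxin triggers its degradation. The nature of each lesion, the number of independent lines and any promoter used were not stated in what was available. Exon reads per library numbered 28585976 to 45346301. Over all tested genes the libraries of a line were not alike: on the first principal component (44.3% of the variance) stabilised 2 and 3 scored 87.8 and 71.5, far from stabilised 1 at -3.01. Knockout-labelled libraries 1 and 2, at -56.7 and -51.5, lay far from the third, at -4.58. Both libraries that stand apart lie near the wild-type scores of -34.0 to -0.457, so results are also given without each.

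The cytosolic ribosome joins a small subunit, which holds the mRNA and reads its codons, to a large subunit, which forms the peptide bonds and carries the tunnel through which the new protein leaves. In Arabidopsis nearly every one of its proteins is encoded by several paralogous genes, so that the genes fall into families, here named by the gene name without its last letter. Ribosomal proteins are made in matched amounts and their genes are commonly expressed together. The TOR kinase, which auxin can activate, promotes their production, and it acts through S6 kinases on the 40S protein RPS6. Mutants in single ribosomal protein genes often have narrow, pointed leaves and altered auxin responses.

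Names and loci were checked against the reference annotation before the values were read. All 161 loci had the reference position. For 8 members the reference gives the listed name to another locus. The locus listed as RPL3A (AT2G43030) belongs in the reference to the ribosomal protein L3 family, and the one listed as RPL3B (AT3G17465) is annotated as plastid L3; the names RPL3A and RPL3B belong there to AT1G43170 and AT1G61580. RPL3A and RPL3B were kept by the rule but are treated here as not cytosolic L3, though the product given for RPL3A names no compartment. Without them 159 members and 146 tested ones remain, and the counts against the wild type are also given for these. The listed RPS5A and RPS5B carry each other's reference names, and the listed RPS13B (AT4G00100) is the locus that the reference calls RPS13A. Loci below follow the deposited table.

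Promoters are shown because the members moved together and because promoters of plant ribosomal protein genes are known for 2 short elements, the telo box and the site II element. The telo box is bound by telomere-repeat-binding TRB proteins and Pur-alpha, and site II elements by TCP factors. The 250 bases before the annotated start of each gene were read from the reference genome (TAIR10.1, whose nuclear chromosomes are those of TAIR10). The letters searched on both strands were AAACCCTA for the telo box, TGGGCC or TGGGCT for the site II element, and TATAAA for the TATA box. TGGGCC and its reverse complement can overlap, and such a promoter counts once. A site II element stood before 104 of 161 members (64.6%) and before 19.2% of all 27443 protein-coding genes. A telo box stood before 36 members (22.4%) and before 4.49% of all protein-coding genes. It stood before 29 of the 148 tested members (19.6%) and before 7 of the 13 untested ones (53.8%). Both elements together stood before 14.9% of the tested and 46.2% of the untested members. The TATA box letters were found before 54.7% of members and 47.3% of all. Of the members, 28 had both a telo box and a site II element (17.4%, against 1.36% of all) and 49 had neither. The 5 windows follow, 5′ to 3′ on the gene's own strand up to the base before its start, with matches to any of these letters in capitals. Of the 24 members called below in any comparison, 11 had a window free of other annotated loci, and 8 of these held a telo box or a site II element. The called members printed are a part of these 8, and no called member without these elements is printed. RPL13B (chr3:18168701-18168950, minus strand) and RPL36A (chr2:15775375-15775624, minus strand) held both, RPS26C (chr3:20893479-20893728, minus strand) and RPL10C (chr1:24838840-24839089, plus strand) a site II element alone, and RPS9C (chr5:15949660-15949909, plus strand), the member with the largest departure from the others, neither.
RPL13B: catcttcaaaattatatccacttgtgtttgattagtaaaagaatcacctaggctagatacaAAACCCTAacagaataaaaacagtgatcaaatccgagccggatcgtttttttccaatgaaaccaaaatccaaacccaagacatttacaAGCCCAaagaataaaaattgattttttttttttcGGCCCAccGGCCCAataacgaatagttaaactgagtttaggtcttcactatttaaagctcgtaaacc
RPL36A: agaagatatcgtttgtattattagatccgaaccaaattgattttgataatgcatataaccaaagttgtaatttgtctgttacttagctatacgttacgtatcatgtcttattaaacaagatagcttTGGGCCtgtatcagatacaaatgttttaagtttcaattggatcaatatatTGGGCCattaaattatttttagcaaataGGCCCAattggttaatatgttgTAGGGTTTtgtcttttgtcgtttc
RPS26C: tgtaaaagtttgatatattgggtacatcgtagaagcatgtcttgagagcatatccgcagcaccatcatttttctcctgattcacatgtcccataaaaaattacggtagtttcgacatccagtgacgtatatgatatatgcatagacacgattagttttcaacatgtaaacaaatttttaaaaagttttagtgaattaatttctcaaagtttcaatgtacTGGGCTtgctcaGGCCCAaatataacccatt
RPL10C: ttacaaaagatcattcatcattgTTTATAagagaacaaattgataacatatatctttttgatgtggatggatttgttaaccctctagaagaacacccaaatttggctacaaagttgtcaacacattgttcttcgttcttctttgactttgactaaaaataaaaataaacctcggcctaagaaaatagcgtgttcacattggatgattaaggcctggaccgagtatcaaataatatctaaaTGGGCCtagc
RPS9C: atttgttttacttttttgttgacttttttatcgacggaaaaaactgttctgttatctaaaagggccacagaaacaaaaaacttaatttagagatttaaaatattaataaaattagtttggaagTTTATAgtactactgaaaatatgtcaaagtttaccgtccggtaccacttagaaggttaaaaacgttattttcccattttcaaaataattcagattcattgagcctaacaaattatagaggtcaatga

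In RPL36A the telo box lay 24 bases before the start on the reverse strand and 3 site II elements lay upstream of it. In RPL13B the telo box lay 189 bases before the start. The members with and without a telo box had like medians of their fold changes. In the knockout-labelled line the median log2 fold change against the wild type was -0.37 over 29 tested members with a telo box and -0.31 over 119 without. In the stabilised line it was -0.31 and -0.28. Over the 45 tested members with neither a telo box nor a site II element the median was -0.29 in each line. Of these 45, 1 was called lower in the knockout-labelled line and 9 in the stabilised line. Of all 148 tested members it was 3 and 23, and of all tested genes 0.732% and 3.78%. These are descriptions of the windows, and the differences were not tested.

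The members together took a smaller share of the exon reads in both lines than in the wild type. Wild-type libraries had shares of 1.52%, 1.56% and 1.43% (SD 0.0657, n = 3). Knockout-labelled libraries had 1.22%, 1.30% and 1.41% (1.31% ± 0.0916, SD, n = 3), and stabilised libraries 1.18%, 1.05% and 1.26% (1.17% ± 0.105, SD, n = 3). Every library of either line lay below every wild-type library, while the lines overlapped each other. By these shares knockout-labelled 3 stood closest to the wild type, and stabilised 2 was lowest. This order depended on the scaling. On the TMM scale used for the tests, the members' mean log2 CPM, centred per gene, was lowest for knockout-labelled 1 (-0.217, against -0.157 for stabilised 2). Stabilised 3 (0.0499) and knockout-labelled 3 (0.0421) were then the highest of the lines. The group means were 0.197 ± 0.0444 for wild-type plants, -0.106 ± 0.133 with the knockout label and -0.0915 ± 0.123 for stabilised plants (SD, n = 3). The median RPKM (reads scaled by exon length and library size) of the 148 tested members was 83.3 ± 2.80 for the wild type, 68.4 ± 5.95 for knockout-labelled plants and 63.3 ± 6.59 for stabilised plants (SD, n = 3). The median of the 40S members was 72.9, 63.3 and 59.1 RPKM in the 3 groups, and that of the 60S members 89.6, 72.5 and 67.6 RPKM. Gene by gene, the median log2 fold change of the 40S members against the wild type was -0.32 with the knockout label and -0.28 in stabilised leaves, and that of the 60S members -0.32 and -0.29. The difference between the subunits was not tested. In bulk leaf RNA, fewer cells rich in ribosomes and less of these transcripts per cell cannot be told apart. A score over the members gets no test, and single members are tested below.

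**Figure D1:**
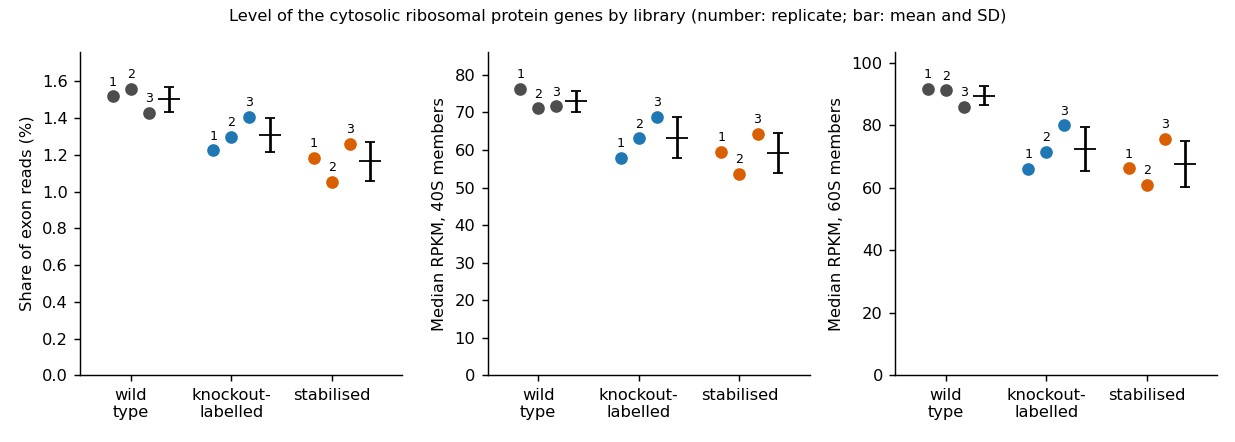
Share of exon reads in the 161 members (left, %), and median RPKM of the tested 40S (middle) and 60S members (right), for each library (points, numbered by replicate), with the mean and SD of each group (bars). All 6 libraries of the lines lie below the wild-type libraries in all 3 panels, and knockout-labelled 3 reaches 1.41% of reads.

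Among themselves the tested members ranged from 1.04 to 372 RPKM in their mean over the 9 libraries, with a median of 73.7 RPKM, against 9.14 RPKM for all 19409 tested genes. In total 47 members exceeded 100 RPKM and 10 stayed under 10 RPKM. The highest were RPS16C, RPL19A, RPL14B, RPS8A and RPL13AB. RPS16C, a 40S protein near the decoding site, stood at 400, 439 and 340 RPKM in wild-type libraries, 382, 360 and 415 RPKM in the 3 knockout-labelled ones and 362, 308 and 342 RPKM in the 3 stabilised ones. These groups overlapped, so the member with the highest level did not separate the lines from the wild type in RPKM. The lowest tested members were RPS8B, RPS11B and RPL10B, with mean levels of at most 3.06 RPKM. The 13 members that were not tested had at most 15 reads in any library, and 6 of them had none in any (RPL27AA, RPL37AB, RPS15AC, RPS15B, RPS15E and RPS27AA). A count of 0 leaves room for up to 3 reads in a library. The others were RPL13C, RPL22A, RPL30A, RPL8B, RPS15C, RPS15F and RPS23A. In 150 members at least 95% of the reads were unique; the 5 with reads but a smaller share were RPL27AB, RPL13AC, RPS17A, RPS17B and RPS2A. RPL27AB had 0.00422% unique reads and overlaps another locus, so its values are uncertain. Another locus overlaps 44 members, and the strand setting of the counting is not stated.

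In the knockout-labelled line most members were lower by a small and similar amount, and 3 of them passed the test over all genes. Against the wild type 0 of the 148 tested members were higher and 3 lower (edgeR's quasi-likelihood test, adjusted by Benjamini-Hochberg over 19409 genes to a p of 0.05), where 0.927% of all tested genes were higher and 0.732% lower. The median log2 fold change was -0.32, a 0.803-fold level, with 142 members below 0, while the median over all tested genes was 0.00. At an unadjusted p under 0.05, 97 members were lower and 0 higher, against 9.85% and 9.77% of all tested genes. In 107 members (72.3%) every knockout-labelled library lay below every wild-type library in TMM-scaled log2 CPM, which held for 14.3% of all tested genes, and 0 members lay above, against 15.1%. DESeq2 called 54 members lower and 0 higher, against 5.13% and 4.05% of all tested genes. Of the 65 tested 40S members 1 was called lower, and of the 83 tested 60S members 2. Knockout-labelled 3 had the smallest shift: without it the median was -0.40 and the call count was again 3, though not for the same 3 members. RPS26C and RPL23AB kept their calls and RPL29A lost its call. The count was 0 without any one of the 3 wild-type libraries, of knockout-labelled 1 or 2, or of stabilised 2 or 3, and 7 without stabilised 1.

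The 3 called members were RPS26C, RPL23AB and RPL29A. RPS26C (AT3G56340, chromosome 3, 20892007 to 20893478, minus strand), a 40S protein at the mRNA exit, had 91.0, 93.5 and 78.9 RPKM in wild-type leaves and 53.8, 56.9 and 66.1 RPKM with the knockout label. The groups did not overlap, and the log2 fold change was -0.68 (SE 0.13, edgeR adjusted p = 0.0478). RPL23AB (AT3G55280, chromosome 3, 20500234 to 20501738, plus strand) encodes a 60S protein at the mouth of the exit tunnel. It fell from 54.7, 50.0 and 46.9 RPKM to 34.0, 37.0 and 39.8 RPKM (log2 fold change -0.56, SE 0.10, edgeR adjusted p = 0.0412). Again no library of the line reached the wild-type range. RPL29A (AT3G06700, chromosome 3, 2117127 to 2118074, minus strand), a small 60S protein, stood at 88.6, 88.8 and 85.9 RPKM in the wild type and at 64.9, 72.5 and 71.6 RPKM in the line (log2 fold change -0.45, SE 0.08, edgeR adjusted p = 0.0458). The direction of all 3 was the same without each library in turn, with log2 fold changes from -0.81 to -0.40. Each call passed in at most 2 of these 9 fits, those without stabilised 1 and, for RPS26C and RPL23AB, without knockout-labelled 3.

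In the stabilised line a larger number of members passed the test, with a median of much the same size. Against the wild type 0 of 148 members were higher and 23 lower (edgeR's quasi-likelihood test), where 5.09% of all tested genes were higher and 3.78% lower. The median log2 fold change was -0.29, a 0.820-fold level, with 143 members below 0 and a median of 0.01 over all tested genes. At an unadjusted p under 0.05, 88 members were lower and 1 higher, against 12.7% and 14.4% of all tested genes. In 99 members (66.9%) every stabilised library lay below every wild-type library, against 14.2% of all tested genes, and 0 members lay above, against 14.1%. DESeq2 called 57 members lower and 0 higher, against 8.21% and 9.79% of all tested genes. Without RPL3A and RPL3B, 23 of 146 were called lower and 56 were lower by DESeq2. At an unadjusted p under 0.05, 87 of them were lower and 0 higher. In 98 (67.1%) every stabilised library lay below every wild-type library. The shares of all tested genes are those above. Of the 40S members 6 were called and of the 60S members 17. Without stabilised 1, which stands apart from the other libraries of its line, 1 member was called higher and 25 lower, and the median was -0.25. The count of calls was 18 without knockout-labelled 3, 9 when knockout-labelled 1 was left out and 5 for knockout-labelled 2. Leaving out wild type 1, 2 or 3 gave 2, 4 and 6. It was 1 without stabilised 2 and 6 without stabilised 3. Both lines are set against the same 3 wild-type libraries, so these results are not independent of each other.

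RPS27B (AT3G61110, chromosome 3, 22611521 to 22612905, plus strand), a zinc-binding 40S protein, had the smallest p. It stood at 118, 121 and 113 RPKM in wild-type leaves, 99.9, 104 and 96.2 RPKM with the knockout label and 82.1, 74.1 and 86.5 RPKM in stabilised leaves. The 3 groups did not overlap. Its log2 fold change in the stabilised line was -0.45 (SE 0.08, edgeR adjusted p = 0.0121), and its call held without each of the 9 libraries in turn, the one call of the 23 for which this was so. In the knockout-labelled line the same value was -0.34 (SE 0.08, edgeR adjusted p = 0.0703).

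RPL10C (AT1G66580, chromosome 1, 24839090 to 24840806, plus strand) belongs to the RPL10 family, whose proteins bind late in 60S assembly. It had 92.1, 82.2 and 66.9 RPKM in wild-type libraries, 61.8, 64.4 and 61.2 RPKM in the 3 knockout-labelled ones and 52.1, 46.7 and 50.5 RPKM in the 3 stabilised ones. Its log2 fold change in the stabilised line was -0.61 (SE 0.11, edgeR adjusted p = 0.0171), the largest fall among the 23 called members, and the call held in 7 of the 9 fits. RPL18B and RPL13B, both of the 60S, fell by 0.49 (SE 0.10, edgeR adjusted p = 0.0218) and 0.45 (SE 0.09, edgeR adjusted p = 0.0219) on the log2 scale. RPL23AB and RPL29A fell in this line too, with log2 fold changes of -0.48 (SE 0.10) and -0.36 (SE 0.08), while RPS26C reached -0.50 (SE 0.13) with an edgeR adjusted p of 0.0526. The remaining calls among the 12 smallest p values were RPL10AA, RPS3B, RPS2A, RPL7AB, RPL9D, RPS27AB and RPL37A, with log2 fold changes from -0.57 in RPL37A to -0.33 in RPL10AA. RPS3B sits at the entry of the mRNA channel, and RPS27AB is a fusion of ubiquitin with a 40S protein. RPS2A had 93.3% unique reads. Beyond these 12, RPL28C, RPL29A, RPL7A, RPL4D, RPL19A, RPS13B, RPL36A, RPL5B, RPL4A, RPL36AB and RPS23B were called, each with its groups apart.

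**Figure D2:**
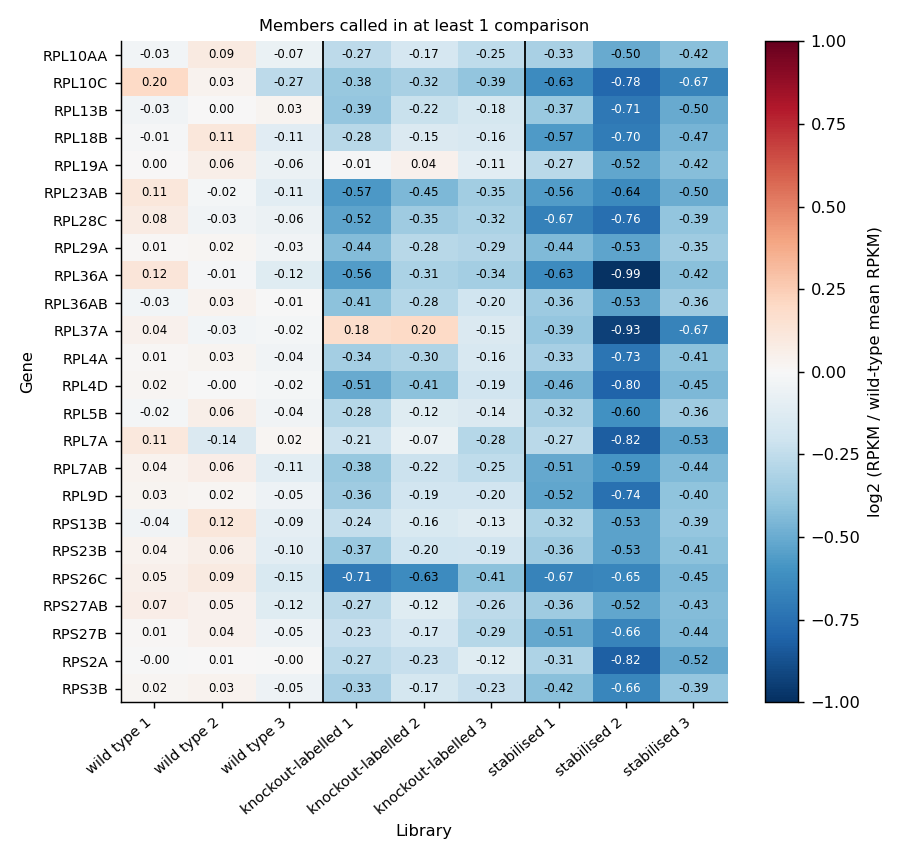
Level of each of the 24 members called in at least 1 comparison, as the log2 ratio of the RPKM in each library to the wild-type mean RPKM (columns, libraries; rows, genes; blue, lower). RPL37A stands above its wild-type mean in knockout-labelled 1 and 2, and stabilised 2 holds many of the lowest values.

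Between the lines 1 member passed the test. In the stabilised line against the knockout-labelled line 0 of 148 were higher and 1 lower (edgeR's quasi-likelihood test), where 2.09% of all tested genes were lower and 4.87% higher. The median log2 fold change was 0.02, with 64 members below 0 and 84 above. At an unadjusted p under 0.05, 1 member was higher and 3 lower, against 16.6% and 14.0% of all tested genes. In 8 members every stabilised library lay below every knockout-labelled library and in 0 above, against 15.3% and 16.3% of all tested genes. The called member was RPL37A (AT1G15250, chromosome 1, 5248664 to 5249676, minus strand), a zinc-binding 60S protein whose locus overlaps AT1G15240. It had 14.8, 14.1 and 14.2 RPKM in wild-type leaves, 16.2, 16.5 and 13.0 RPKM with the knockout label and 11.0, 7.51 and 9.04 RPKM in stabilised leaves. The stabilised libraries lay below all others. The log2 fold change was -0.54 (SE 0.12, edgeR adjusted p = 0.0402) against the knockout-labelled line and -0.57 (SE 0.12, edgeR adjusted p = 0.0274) against the wild type. The knockout-labelled line itself gave -0.03 (SE 0.12, edgeR adjusted p = 0.910) against the wild type. The direct call held without wild type 1, knockout-labelled 3 or stabilised 1, and was lost without each of the other 6 libraries, where the adjusted p reached 0.155. The count of calls was 4 without stabilised 1 (1 higher, 3 lower). DESeq2 called 1 member higher and 3 lower, against 11.4% and 7.40% of all tested genes. The part of the overlapping locus in these counts was not tested. Scaled by library totals alone, the median of the members between the lines was -0.17, beside -0.19 for all tested genes.

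**Figure D3:**
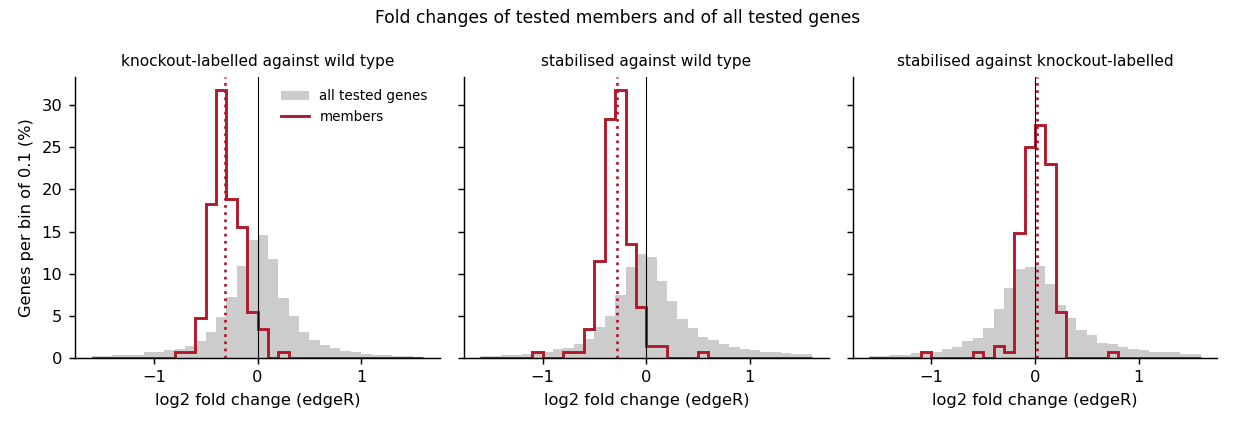
Log2 fold changes (edgeR) in bins of 0.1, as the percentage of the 148 tested members (red line) and of the 19409 tested genes (grey), for the 3 comparisons. The dotted line is the median of the members, -0.32, -0.29 and 0.02 from left to right, and the members form a narrow peak left of 0 in both comparisons with the wild type.

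Members that departed from the others were sought by scaling the libraries to the members in place of all genes. On this scale edgeR called 0 members in the knockout-labelled line, 1 higher in the stabilised line and 0 between the lines, where 11.0%, 21.2% and 3.76% of all tested genes were higher and 0.742%, 0.974% and 0.644% lower. At an unadjusted p under 0.05 the counts were 4 higher and 2 lower, 8 higher and 3 lower, and 1 higher and 2 lower, where 36.1%, 36.6% and 14.5% of all tested genes were higher and 2.29%, 2.55% and 9.36% lower. The SD over the 9 libraries of a member's log2 CPM less the module median was 0.11 at its median and at least 0.2 in 18 of 148 members. The member called was RPL3A, which is treated here as not cytosolic, though the reference product for its locus names no compartment. Without RPL3A and RPL3B the count was 0. RPL3A (AT2G43030, chromosome 2, 17894796 to 17895882, plus strand) had 115, 128 and 119 RPKM in wild-type libraries, 95.2, 115 and 134 RPKM in the 3 knockout-labelled ones and 114, 192 and 203 RPKM in the 3 stabilised ones. It was high in stabilised 2 and 3 and not in stabilised 1. Relative to the members it was 0.88 higher on the log2 scale in the stabilised line (edgeR adjusted p = 0.0219). This call was lost without wild type 1 (adjusted p = 0.0739), wild type 2 (0.0689), wild type 3 (0.0549) or stabilised 2 (0.0856), and kept without the other 5. Scaled to all genes it was 0.60 higher (SE 0.25, edgeR adjusted p = 0.170). The list of 29 other tested nuclear genes of the plastid ribosome had a median log2 fold change of 0.30 in the same comparison and 0 calls by edgeR on the scale of all genes. On the scale of the members, where RPL3A was called, their median was 0.59 and 18 of the 29 were called higher, against 21.2% of all tested genes. RPL3B, the locus annotated as plastid L3, did not rise in the stabilised line. It had 25.9, 24.0 and 25.3 RPKM in wild-type libraries, 22.8, 22.2 and 24.6 RPKM in the knockout-labelled ones and 22.3, 14.5 and 18.3 RPKM in the stabilised ones.

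RPS9C (AT5G39850, chromosome 5, 15949910 to 15951475, plus strand) varied most, with an SD of 0.63. It encodes a 40S protein that joins early in assembly. Levels of RPS9C were 26.7, 32.1 and 32.2 RPKM in wild-type leaves, 41.7, 49.4 and 30.6 RPKM with the knockout label and 28.0, 11.2 and 13.3 RPKM in stabilised leaves. Knockout-labelled 1 and 2 were high, stabilised 2 and 3 low, and the third library of the one and the first of the other lay near the wild type. No test called it: the log2 fold changes were 0.30 (SE 0.28, edgeR adjusted p = 0.602) in the knockout-labelled line and -0.74 (SE 0.28, edgeR adjusted p = 0.138) in the stabilised line, and -1.04 (SE 0.28, edgeR adjusted p = 0.0620) between the lines, where the groups did not overlap. The other members with a large SD were RPS8B (0.37), RPS16B (0.32), RPL39B (0.30), RPL37A (0.30), RPS11B (0.27) and RPS15AB (0.26). RPS8B and RPS11B had low levels, of 0.490 to 1.64 RPKM and 1.56 to 3.34 RPKM over the libraries. RPS16B, RPL39B and RPL37A shared with RPS9C higher values relative to the members in knockout-labelled 1 and 2 than in knockout-labelled 3. Of these 8 members, RPL37A alone was called in a comparison scaled to all genes.

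**Figure D4:**
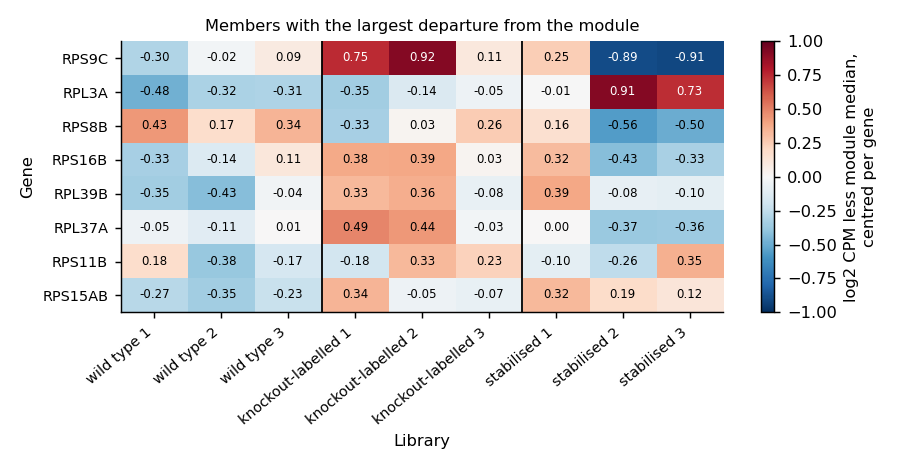
Departure of the 8 members with the largest SD over libraries: log2 CPM less the median of the tested members in that library, centred per gene (columns, libraries; rows, genes; red, above its own mean). RPS9C is high in knockout-labelled 1 and 2 and low in stabilised 2 and 3, and RPL3A is high in stabilised 2 and 3.

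The members form 65 families, of which 8 have 1 named gene and 57 several. A family here holds only the genes that the name rule found, so paralogs listed under other names are missing from its shares. RPL9, for example, holds RPL9D alone. The RPL3 family consists of RPL3A and RPL3B, which are treated here as not cytosolic. In 52 of the 57 the same paralog had the largest share of the family's RPKM in all 9 libraries, and in 5 it differed between libraries. The leading paralog held 64.2% of its family at the median. Shares were steady, with a median range over the 9 libraries of 4.55 percentage points and a largest range of 18.1 points, in RPS9. RPS9C made up 15.5%, 16.9% and 20.5% of RPS9 in wild-type leaves, 26.4%, 28.7% and 19.0% with the knockout label and 21.1%, 11.3% and 10.7% in stabilised leaves; the remainder was RPS9B. In RPS26 the lead changed between RPS26C and RPS26B. RPS26C held 49.2%, 49.5% and 43.9% in wild-type leaves and 37.4%, 37.1% and 41.1% with the knockout label, and it led in every wild-type library. In stabilised libraries it held 37.6%, 43.2% and 42.7%. RPS26B held 34.8%, 33.7% and 38.0%, then 40.5%, 41.2% and 39.7%, then 41.8%, 38.9% and 38.9% in the same order. In RPS14 the lead passed to RPS14A in knockout-labelled 1 alone, with 44.1% against 43.1% for RPS14B; in wild-type leaves RPS14B held 50.7% ± 1.44 and RPS14A 39.8% ± 1.74 (SD, n = 3). In the other 3 families the leading pair had close mean shares over the 9 libraries, of 34.0% for RPL35AB and 37.0% for RPL35AC, 44.0% for RPL36B and 47.1% for RPL36C, and 50.1% for RPS13A and 49.9% for RPS13B. Shares were not tested.

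**Figure D5:**
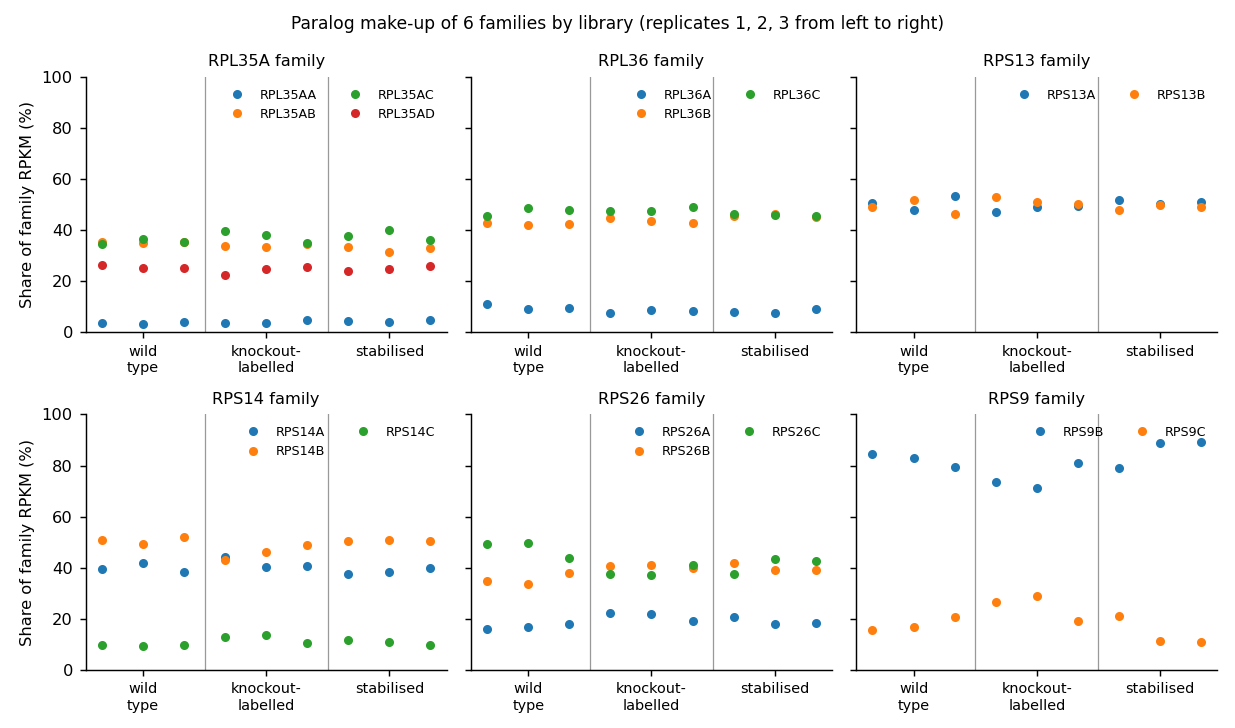
Share of the summed RPKM (%) of each family's members held by each paralog in the 9 libraries, for the 5 families whose leading gene differs between libraries and for RPS9. RPS26C leads RPS26B in the 3 wild-type libraries and not in all libraries of the lines, and RPS9C ranges from 10.7% to 28.7% of its family.

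Members listed under names with a known role in leaf growth, auxin response or TOR signalling had median fold changes below 0 in both lines. These medians were a little further from 0 than those of the other members. Of 25 such names 20 were members and were tested; RPL5A, RPL9C, RPL38A, RPL38B and RPS18A are not listed under these names. Their median log2 fold change was -0.39 in the knockout-labelled line and -0.34 in the stabilised line, beside -0.30 and -0.27 for the 128 other tested members. In the knockout-labelled line RPL23AB was the one called, against 2 of the 128 others and 0.732% of all tested genes lower. In the stabilised line 7 of 20 were called lower (RPL10C, RPL23AB, RPL9D, RPL4A, RPL4D, RPL5B and RPL36AB), against 16 of the 128 others (12.5%) and 3.78% of all tested genes. The names were chosen with results known, and the difference from the other members was not tested. They were matched as listed, but the reference gives the names RPL36AB and RPS13A to other loci, AT4G14320 and AT4G00100. The known roles may therefore not belong to the loci listed as RPL36AB and RPS13A. AT4G00100 is the listed RPS13B, which was called lower in the stabilised line and is counted among the 128 others. RPL24B (STV1), needed for reinitiation on mRNAs of auxin response factors, had 202, 214 and 214 RPKM in wild-type libraries, 188, 207 and 205 RPKM in the 3 knockout-labelled ones and 178, 140 and 167 RPKM in the 3 stabilised ones. Its log2 fold changes were -0.18 (SE 0.09, edgeR adjusted p = 0.292) and -0.30 (SE 0.09, edgeR adjusted p = 0.0673). RPL10AB (PGY1), which acts with leaf polarity genes, had -0.42 (SE 0.13, edgeR adjusted p = 0.129) and -0.30 (SE 0.13, edgeR adjusted p = 0.167). RPS6A and RPS6B encode the target of S6 kinase. RPS6A stood at 72.2, 65.6 and 69.7 RPKM in wild-type leaves, 42.7, 52.9 and 63.0 RPKM with the knockout label and 52.7, 43.5 and 55.4 RPKM in stabilised leaves, with no overlap with the wild type, yet neither it (edgeR adjusted p = 0.135 and 0.163) nor RPS6B (0.168 and 0.0715) was called. RPL10B, a low paralog of the RPL10 family, had 2.60 to 3.68 RPKM over all libraries and log2 fold changes of 0.02 (SE 0.17) and 0.04 (SE 0.17), whose sign changed with the setting.

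Other genes of the translation machinery were given by lists chosen with earlier results known. Over all tested genes 0.732% were called lower in the knockout-labelled line and 3.78% in the stabilised line. Between the lines 2.09% were lower and 4.87% higher. In the stabilised line the lists that follow had 13.3%, 9.52%, 5.26% and 7.14% of their genes called lower, in order of mention. Of 15 other tested cytosolic ribosome genes, such as the acidic P proteins, 0 were called in the knockout-labelled line and 2 lower in the stabilised line, with medians of -0.35 and -0.33. The called genes were RACK1A, a scaffold on the 40S (log2 fold change -0.41, SE 0.10, edgeR adjusted p = 0.0392), and RPL40B_1, a ubiquitin fusion (-0.37, SE 0.09, edgeR adjusted p = 0.0410). Of 21 genes of ribosome biogenesis 0 and 2 were called lower, with medians of -0.16 and -0.36; the called genes were the fibrillarin MED36B (-0.42, SE 0.08, edgeR adjusted p = 0.0150) and NOP5-1 (-0.58, SE 0.13, edgeR adjusted p = 0.0321). Of 19 translation factors 0 and 1 were called, the elongation factor gene A1_1 (-0.33, SE 0.08, edgeR adjusted p = 0.0346), with medians of -0.20 and -0.16. Of 14 genes of the TOR pathway and of promoter-binding factors, 0 were called in the knockout-labelled line and RAPTOR2, a partner of TOR, was lower in the stabilised line (-0.54, SE 0.10, edgeR adjusted p = 0.0138), with medians of -0.03 and -0.04. Between the lines RAPTOR2 was lower (-0.50, SE 0.10, edgeR adjusted p = 0.0290) and the S6 kinase gene ATPK2 higher (2.00, SE 0.42, edgeR adjusted p = 0.0360) in the stabilised line.

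Markers of other tissues and the library facts moved beside the members as follows. For the calls among them, 0.732% of all tested genes were lower and 0.927% higher in the knockout-labelled line. In the stabilised line 3.78% were lower and 5.09% higher. The summed level of 12 dividing-cell genes was 28.4, 23.2 and 26.0 RPKM in wild-type libraries, 11.9, 11.4 and 21.2 RPKM in the 3 knockout-labelled ones and 17.7, 18.6 and 21.6 RPKM in the 3 stabilised ones, with none of the 12 at 0 in any library; 1 of 12 was called in the knockout-labelled line (TSO2, -1.45, SE 0.26, edgeR adjusted p = 0.0417) and 0 in the stabilised line. TSO2 alone made up 17.8, 7.02 and 12.2 RPKM of these sums at the group means, and the median log2 fold change of the 12 was -0.16 in the knockout-labelled line and 0.05 in the stabilised line, where 7 of 12 were above 0. The 6 growing-leaf regulators summed to 6.89 to 8.91 RPKM, 14.2 to 16.6 RPKM and 9.91 to 13.7 RPKM in the 3 groups. GRF1_1 was called higher in both lines, the one call among the 5 that were tested. The median log2 fold change of these 5 was 0.36 in the knockout-labelled line, with 1 of 5 below 0. In the stabilised line the median was 0.80, with 2 of 5 below 0. The 6 mature-leaf genes summed to 12460 to 13017 RPKM, 9612 to 11390 RPKM and 7602 to 12598 RPKM, and RCA fell in the stabilised line (-0.69, SE 0.18, edgeR adjusted p = 0.0498). It was the one called of the 6, whose median log2 fold change was -0.48 in the knockout-labelled line and 0.11 in the stabilised line, where 4 of 6 were above 0. AP3 and PI, floral organ genes, reached 4.46 and 8.44 RPKM in knockout-labelled 3 against at most 0.323 and 0.952 RPKM elsewhere; without this library the median of the members against the wild type was -0.40. Reads in introns made up 0.531% to 0.787% of the members' gene reads. The targeted gene, IAA26, had 17.5, 18.5 and 20.3 RPKM in wild-type leaves, 16.7, 17.2 and 12.4 RPKM with the knockout label and 12.7, 9.81 and 10.3 RPKM in stabilised leaves. It fell in the stabilised line (log2 fold change -0.70, edgeR adjusted p = 0.0112), while the knockout-labelled line gave -0.40 (edgeR adjusted p = 0.120), and its transcript was present in every knockout-labelled library. The part of these markers in the results was not tested.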

How the data were processed

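RNA was measured by sequencing in 9 leaf libraries, 3 in each of 3 groups taken from the labels. The authors deposited counts of total and unique exon reads, gene reads and intron reads per gene, per the file headers, and RPKM values. The submitters' processing notes name the build TAIR10; neither aligner nor counter nor strand setting was found in the labels or headers. No column of per-sample values was left unmatched (0), and 3 columns of group means were not used. Deposited starts count from 0, and positions are printed from 1.

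Genes were kept by edgeR's filterByExpr (minimum count 10, minimum total 15, minimum share 0.7), which left 19409 of 32833. With edgeR 4.0.16 in R 4.3.3, total exon reads were normalized by TMM and tested by quasi-likelihood (glmQLFit, glmQLFTest), all 9 libraries in 1 fit without covariates. A gene was called when its p, adjusted by Benjamini-Hochberg over the tested genes, was under 0.05. The SE is the size of the log2 fold change divided by the square root of F. Departure from the members used the same fit, scaled by the median of ratios over the tested members. The fits were tested on simulated data. DESeq2 1.42.0, other scalings, no filter, unique reads, the 2 groups alone, the replicate block and each library left out were alternatives. Promoters were read from the reference genome with Python 3.11.15, since no promoter table was given. Intervals and the limit of 3 reads for a count of 0 cover counting error only.

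Members and lists were chosen with earlier results of these data known. Named genes are the 12 called members with the smallest p per comparison, the 8 with the largest departure (mean of at least 1 RPKM), the 5 highest and 3 lowest, members of known role, up to 3 called genes per list and families whose leading paralog differs. The remaining called members and the lines' shared gene IAA26 were named after their values were seen, as were AP3 and PI, for their levels in 1 library.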

Additional observations from a re-analysis of the deposited data

Results flagged for a closer look

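RPL37A differed between the lines: the log2 fold change of the stabilised against the knockout-labelled line was -0.54 by edgeR's quasi-likelihood test (SE 0.12, adjusted p = 0.0402), with all 3 stabilised libraries below all 3 knockout-labelled libraries. It was picked out because the 2 lines were set directly against each other in 1 contrast. Over all alternatives the adjusted p of this value ran from 0.00218 to 0.155.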

How the results depend on the processing

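The medians of the members kept their sign in both comparisons with the wild type under every alternative run. With each library left out in turn the median log2 fold change ran from -0.40 to -0.27 in the knockout-labelled line, from -0.36 to -0.25 in the stabilised line and from -0.04 to 0.12 between the lines. Library totals alone gave -0.21 and -0.37 against the wild type, where the median of all tested genes moved to 0.12 and -0.07, and -0.17 between the lines. The numbers of calls depended on the setting. In the knockout-labelled line, against 3 calls, there were 0 with library totals alone, 54 by DESeq2, 1 with no filter on low counts, 0 with the 2 groups alone and 0 to 7 with a library left out. In the stabilised line, against 23, there were 57 by DESeq2, 1 with the 2 groups alone and 1 to 26 with a library left out. Between the lines, against 1, there were 4 by DESeq2, 0 with the 2 groups alone and 0 to 4 with a library left out. Departures from the members ran from 0 to 4, 0 to 2 and 0 to 4 with a library left out. RPL3A's departure in the stabilised line was lost with the 2 groups alone (0 calls) and without RPL3A and RPL3B, an alternative added after the data were seen (0 calls). The cause of these changes was not tested, except that fits of 2 groups or of 8 libraries hold fewer samples. With the replicate number as a block there were 0 calls in the knockout-labelled line and 0 between the lines. Deviations of same-numbered libraries correlated from -0.44 to 0.52, 3 of 9 pairs above 0.1, and 6 of 18 comparisons were best with their own number, so the numbers were not taken to pair the samples. RPL10B changed sign in the knockout-labelled line without wild type 3 (-0.058) and without knockout-labelled 3 (-0.10), and in the stabilised line with library totals alone (-0.034), without wild type 3 (-0.036) and without stabilised 3 (-0.035). Of the alternatives for single named members, 658 kept direction and side of the threshold, 156 lost and 26 gained a call, and 5 reversed.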
